A study of Mus musculus with 8 samples.

Results

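The genes described here are 35 enzymes and enzyme partners of nucleotide synthesis and salvage, taken by gene symbol from a table of 43430 gene IDs. They were chosen by function, with earlier results of these data known. They fall into 6 roles: 5 genes of pyrimidine synthesis, 11 of purine synthesis, 4 of phosphoribosyl pyrophosphate (PRPP) supply, 6 of deoxynucleotide synthesis, 4 of salvage and 5 nucleotide kinases. All 35 were found in the table and all 35 passed the filter on low counts that left 12689 genes for testing. RNA was sequenced from endothelial cells, the cells that line blood vessels, sorted by the surface protein CD31 from the lungs of C57BL/6 mice at postnatal day 15. The 4 WT libraries came from wild-type mice. The 4 KO libraries came from mice in which the gene of QPC, part of respiratory complex III of the mitochondrion, was deleted in endothelial cells, and the labels record tamoxifen on postnatal days 0 to 4 for both groups. The sources used here give neither the promoter that drives the recombinase nor the number of mice behind a library, so p-values measure the spread between libraries, which may in part be technical.

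Nucleotides are built anew from amino acids, one-carbon units and PRPP, an activated ribose, or recovered from free bases and nucleosides by salvage. The pyrimidine route passes through the mitochondrion: DHODH, an enzyme of the inner membrane, oxidises dihydroorotate and hands the electrons to ubiquinone, which complex III reoxidises. Purines are assembled in the cytosol to inosine monophosphate (IMP), from which the adenine and guanine nucleotides branch, and ribonucleotide reductase turns ribonucleotides into the deoxynucleotides of DNA. The series asks what loss of complex III does to gene expression in these cells, and the values below give the transcripts of this route in each library.

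Library depth ran from 6407924 counts in WT replicate 3 to 13981329 in KO replicate 4. Levels are CPM, counts scaled to the library's size with TMM factors and listed in replicate order, and changes are fitted log2 fold changes of KO against WT from the quasi-likelihood test of edgeR, called where the Benjamini-Hochberg adjusted p over all 12689 genes was under 0.05. Uqcrq, taken as the gene of QPC, had 26.3, 24.5, 26.8 and 31.5 CPM in WT and 1.59, 15.6, 9.57 and 14.0 CPM in KO. Every KO library lay below every WT library, lowest in KO replicate 1, although the fitted change of -1.42 (SE 0.53) had an adjusted p of 0.179. All 8 endothelial markers were detected, with a summed level of 13183 to 15470 CPM in WT and 11387 to 14801 CPM in KO, and 2 of them, Tek and Erg (both named after their values were seen), were called lower in KO. The 7 markers of alveolar type 2 cells were also present, none at 0 in every library, and summed to 3516 to 20639 CPM in WT and 3416 to 14957 CPM in KO. The 7 mesenchymal markers summed to 277 to 1522 CPM in WT and 285 to 1391 CPM in KO. The 8 leukocyte markers summed to 418 to 2005 CPM in WT and 395 to 1497 CPM in KO. Nearly all of the leukocyte sum was Lyz2 (named after its values were seen), at means of 1185 CPM in WT and 782 CPM in KO. No marker of these 3 cell types was called, and only 5 of the 8 leukocyte markers passed the filter. In sorted bulk cells, more cells of a kind and more RNA per cell cannot be told apart. The 4 Y-linked genes summed to 153, 0.345, 3.44 and 150 CPM in WT and 1.22, 219, 1.19 and 172 CPM in KO. Both groups thus held libraries with high and libraries with very low Y-linked RNA.

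Nucleotide enzyme transcripts were higher in KO as a rule, but few met the threshold. Of the 35 genes, 8 rose (22.9%) and 0 fell, where 2.25% of all genes tested rose, 1.39% fell and 3.63% were called in either direction. The count was 2 without KO replicate 4, 3 without WT replicate 4 or without either of KO replicates 2 and 3, and 4 without either of WT replicates 1 and 2. Those that rose were Cad and Ctps of pyrimidine synthesis, Impdh2 of guanine nucleotide synthesis, Tyms and Rrm1 of deoxynucleotide synthesis, the salvage enzyme Aprt, and the kinases Nme1 and Nme4. The fitted change was above 0 for 30 genes and below 0 for 5, with a median of 0.78 against 0.01 over all genes tested (0.49 without KO replicate 4 and 0.50 without WT replicate 3). All 4 KO libraries were above all 4 WT libraries for 12 of the 35 genes (34.3%), against 6.94% of all genes tested, and below them for 1, Impdh1, against 4.67%. At an unadjusted p under 0.05 there were 17 members, 16 of them higher, against 15.2% of all genes. Summed over the 35 genes, the level was 1622 to 1860 CPM in the WT libraries and 2031 to 2677 CPM in the KO libraries, with no overlap.

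**Figure D1:**
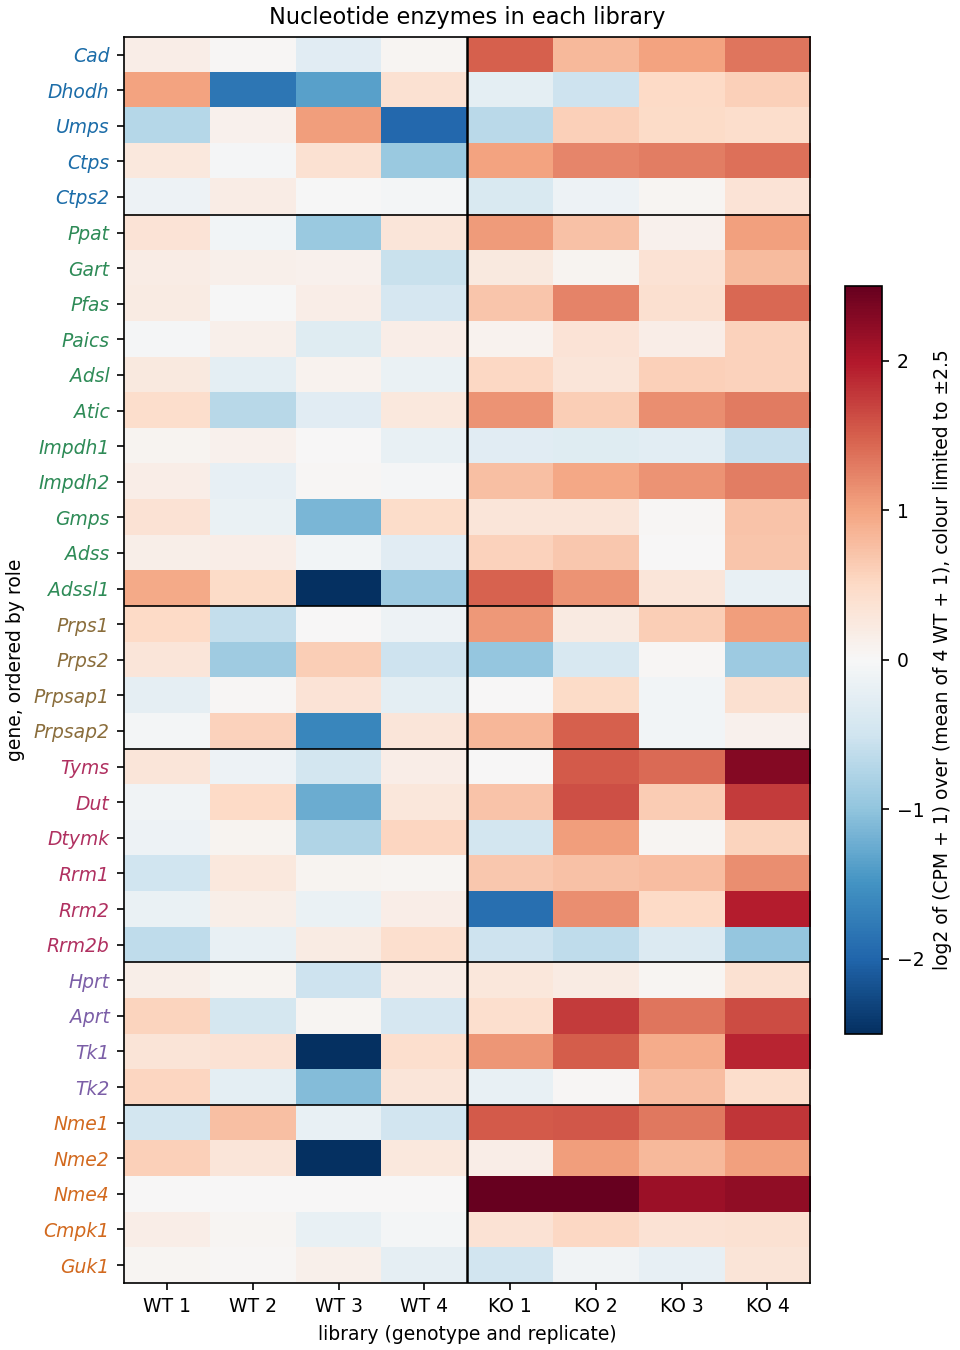
Heat map of the 35 nucleotide enzyme genes (vertical axis, ordered and coloured by role) in the 8 libraries (horizontal axis, genotype and replicate), coloured by log2 of (CPM + 1) over (mean of the 4 WT libraries + 1) and limited to 2.5 either way. The KO side is mostly red. Cad, Ctps, Impdh2, Nme1 and Nme4 are red in all 4 KO libraries, while Impdh1, Prps2 and Rrm2b are mostly blue. The dark blue cells of Adssl1, Tk1 and Nme2 are WT replicate 3, the shallowest library. CPM are scaled to library size, and whether depth plays a part in these cells was not tested.

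Promoters are shown for 3 of the genes that rose, picked because their windows hold a short motif. These genes have different roles, and whether they are regulated together was not tested. The windows, from 250 bases before to 50 bases after the annotated start, are RefSeq sequence of build GRCm38.p6, written 5′ to 3′ on the gene's strand, with the E-box CACGTG in capitals. They lie at chr9:108560186-108560485 (plus strand) for Impdh2, chr5:30073576-30073875 (minus strand) for Tyms and chr11:93968223-93968522 (minus strand) for Nme1.
Impdh2: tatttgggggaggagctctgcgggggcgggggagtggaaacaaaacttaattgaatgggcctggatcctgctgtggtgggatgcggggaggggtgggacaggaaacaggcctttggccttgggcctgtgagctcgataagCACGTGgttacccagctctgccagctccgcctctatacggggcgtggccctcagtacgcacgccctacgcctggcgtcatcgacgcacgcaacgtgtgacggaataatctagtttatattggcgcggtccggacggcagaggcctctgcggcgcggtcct
Tyms: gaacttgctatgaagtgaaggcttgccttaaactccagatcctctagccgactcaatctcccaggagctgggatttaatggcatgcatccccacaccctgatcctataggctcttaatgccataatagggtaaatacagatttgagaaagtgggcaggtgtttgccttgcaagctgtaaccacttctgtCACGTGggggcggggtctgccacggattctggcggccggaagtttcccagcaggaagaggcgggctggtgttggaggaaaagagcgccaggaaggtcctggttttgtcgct
Nme1: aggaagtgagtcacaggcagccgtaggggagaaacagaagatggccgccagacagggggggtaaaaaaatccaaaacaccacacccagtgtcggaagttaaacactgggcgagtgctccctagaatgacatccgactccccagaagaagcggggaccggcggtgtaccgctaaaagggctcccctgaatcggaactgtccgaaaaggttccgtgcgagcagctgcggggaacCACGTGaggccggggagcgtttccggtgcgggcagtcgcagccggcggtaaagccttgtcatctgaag
Counted from the RefSeq start of each window, the motif begins 110 bases before it in Impdh2, 61 in Tyms and 18 in Nme1. The GENCODE gene bounds given below differ from these starts. The bounds 108560286 of Impdh2 and 93968521 of Nme1 lie upstream of the RefSeq start, and both motifs lie inside those bounds.

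CACGTG reads the same on both strands and is the core sequence bound by MYC, USF and related basic helix-loop-helix proteins. RefSeq windows were matched for 32 of the 35 genes; those of Dhodh, Pfas and Rrm2b were not matched. The motif was in the windows of 6 of the 32 genes (18.8%), namely Atic, Dtymk, Impdh2, Nme1, Paics and Tyms, and in 2187 of 27025 genes with a window (8.09%). Of these 6 genes, Impdh2, Tyms and Nme1 rose, whereas Cad, Ctps, Rrm1, Aprt and Nme4 rose without the letters CACGTG in this window. Searched on both strands, TGATGNAA, the core of the composite element bound by ATF4, was in the window of Prps1 alone (3.12% of the 32 genes, against 4.51% of all genes). The E2F motif TTTCCCGC was in the windows of Ppat and Prps2 (6.25%, against 1.24%), neither of which was called, and its variant TTTGGCGC was in 0 of the 32 (0.585% of all genes). A match of letters is a description of the window and not evidence of binding.

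In pyrimidine synthesis Cad and Ctps, at the entry and the exit of the route, rose, and the steps between them varied too much among libraries for a change of that size to be resolved. Whether the steps differed in their change was not tested. Cad (chromosome 5, 31054780 to 31078479 in GRCm38, plus strand) encodes the multifunctional enzyme of the opening steps, up to dihydroorotate. It had 48.7, 44.3, 35.4 and 44.7 CPM in WT and 123, 76.8, 88.0 and 112 CPM in KO. Every KO library was thus well above every WT library, with means of 43.3 ± 5.59 and 99.9 ± 21.3 CPM (SD, n = 4 each). The log2 fold change was 1.21 (SE 0.22, edgeR adjusted p = 0.00446), a 2.31-fold rise with a 95% interval of 1.68 to 3.17. The call held with each library left out in turn, with adjusted p up to 0.0161.

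Ctps (chromosome 4, 120539868 to 120570276, minus strand) makes CTP from UTP. Its level was 22.6, 18.2, 24.8 and 9.30 CPM in WT and 38.5, 44.8, 46.8 and 50.4 CPM in KO. The groups did not overlap and the KO libraries lay close together, for a log2 fold change of 1.27 (SE 0.32, edgeR adjusted p = 0.0380), or 2.41-fold. The call was lost on leaving out any library other than WT replicate 3 or KO replicate 1 (adjusted p 0.0506 to 0.114). It was also lost after removal of a length and GC trend (0.0616) and with replicate number as a block in the edgeR fit (0.0734). The log2 fold change of Ctps was 1.05 or more in each of these fits. Its paralogue Ctps2, which catalyses the same reaction and is X-linked, had 30.7, 38.3, 33.3 and 32.4 CPM in WT and 25.6, 30.8, 34.8 and 42.8 CPM in KO. These ranges overlap throughout, and the 95% interval of its log2 fold change, -0.58 to 0.56, leaves out a rise of the size fitted for Ctps.

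Dhodh, the mitochondrial step that depends on ubiquinone, was the least even gene of this route in WT. It had 27.5, 3.02, 4.48 and 17.5 CPM in WT and 11.0, 8.85, 19.0 and 20.4 CPM in KO. The WT libraries spanned the whole KO range, so that the log2 fold change of 0.17 (SE 0.64, adjusted p = 0.966) has a 95% interval of -1.19 to 1.53 and changes of either sign that size were not detectable. Umps, which makes UMP from orotate, had 10.4, 18.9, 37.2 and 3.79 CPM in WT and 10.7, 27.0, 25.0 and 24.3 CPM in KO. It too overlapped between groups, at a log2 fold change of 0.31 (SE 0.56, adjusted p = 0.902, 95% interval -0.86 to 1.49). Both intervals include changes of the size fitted for Cad and Ctps, and Umps was fitted at 1.00 with limma voom and at 0.98 without WT replicate 3. The median of the 5 pyrimidine genes, 0.31, moves with single libraries: it was 0.98 without WT replicate 3, 0.82 without WT replicate 1, 0.54 without KO replicate 1 and 1.00 with limma voom.

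**Figure D2:**
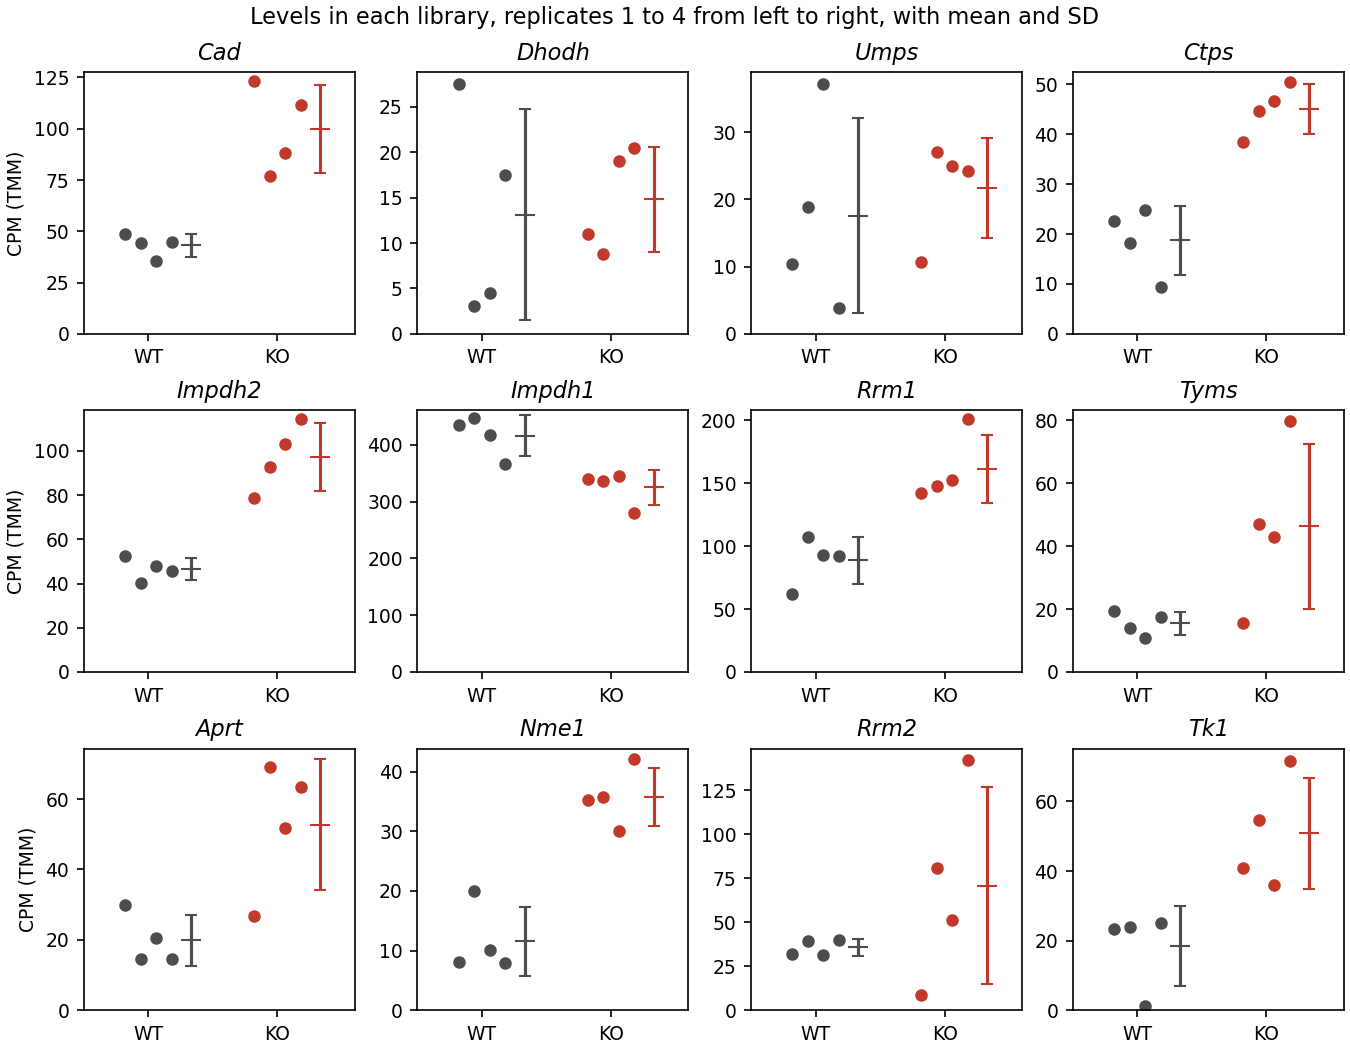
Level in CPM (vertical axis of each panel, starting at 0) of 12 nucleotide enzyme genes in each WT and KO library, with the mean of 4 libraries and its SD. Cad, Ctps, Impdh2, Rrm1, Nme1 and Tk1 show KO libraries wholly above WT, Impdh1 shows them wholly below, and Dhodh and Rrm2 spread widely within a group.

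In purine synthesis 1 of 11 genes rose, Impdh2, and the 2 isozymes of that step had fitted changes of opposite sign. The 6 genes that assemble the ring up to IMP were all fitted above 0, with a median of 0.66, and edgeR called 0 of them; 4 had an unadjusted p under 0.05, DESeq2 called 1 (Atic) and limma voom 0. With edgeR, Atic was called under the newer dispersion option (adjusted p = 0.0463) and with the level of alveolar type 2 markers as a term (0.0425). Atic, which closes the ring, came nearest. It had 26.2, 11.5, 15.5 and 23.1 CPM in WT and 42.8, 29.7, 43.9 and 48.4 CPM in KO, without overlap, at a log2 fold change of 1.11 (SE 0.33, adjusted p = 0.0763). Pfas, which adds a nitrogen from glutamine, went from 17.1, 14.6, 16.6 and 10.9 CPM in WT to 24.4, 36.2, 19.8 and 41.8 CPM in KO (1.05, SE 0.36, adjusted p = 0.136). Its 4 KO libraries were again above all WT libraries.

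Ppat, the committing step of purine synthesis, had means of 19.3 ± 7.01 CPM in WT and 33.8 ± 9.51 CPM in KO, with overlapping groups (0.80, adjusted p = 0.294). Adsl, which acts both in the ring and in AMP synthesis, had KO libraries at 40.7 to 50.1 CPM above WT libraries at 27.5 to 39.1 CPM (0.52, adjusted p = 0.326). Gart and Paics, both multifunctional enzymes of the ring, had the smallest fitted differences, at 0.39 and 0.31 with adjusted p of 0.554 and 0.397. Paics was the most abundant gene of the ring per kilobase of exon (50.8 ± 7.21 CPM per kb in WT) and Pfas the least (1.86 ± 0.36). Ppat and Paics lie head to head on opposite strands with 272 shared exon bases, and since the sources used here do not state the strand setting of the counting, reads from that stretch cannot be assigned to either.

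Impdh1 and Impdh2 both oxidise IMP on the way to GMP, the rate-limiting step of guanine nucleotide synthesis. Impdh2 (chromosome 9, 108560286 to 108565584, plus strand) had 52.3, 40.3, 47.8 and 45.8 CPM in WT and 78.9, 92.5, 103 and 115 CPM in KO. No library overlapped, and the log2 fold change was 1.06 (SE 0.20, edgeR adjusted p = 0.00650), a 2.09-fold rise with a 95% interval of 1.55 to 2.81 that held with each library left out (adjusted p up to 0.0306). Impdh1 had 434, 447, 418 and 366 CPM in WT and 340, 336, 346 and 279 CPM in KO. Its KO libraries lay below every WT library, yet the log2 fold change of -0.36 (SE 0.13) was not called by edgeR (adjusted p = 0.168), while DESeq2 called it (adjusted p = 0.0285). The processed pseudogene Impdh2-ps is 99.74% identical to an Impdh2 transcript over 1545 bases and was counted at 0, and the treatment of reads with more than 1 match is not given in the sources used here.

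Impdh1 was the more abundant isozyme per kilobase in both groups, at 126 ± 10.8 CPM per kb against 15.1 ± 1.62 for Impdh2 in WT and 98.8 ± 9.38 against 31.6 ± 4.95 in KO. It was the highest of all 35 genes on that scale in WT, followed by Guk1 (67.9 ± 7.06), Hprt (62.2 ± 12.7) and Paics (50.8 ± 7.21), and Guk1 and Hprt did not differ beyond their spread. Of the genes after IMP, Adss, the first step to AMP in most tissues, had 77.0, 77.7, 66.1 and 57.2 CPM in WT and 105, 112, 70.3 and 113 CPM in KO (0.52, adjusted p = 0.206), with KO replicate 3 alone inside the WT range. Gmps, which makes GMP, overlapped between groups (47.3 ± 20.2 and 60.9 ± 12.7 CPM, adjusted p = 0.712). Adssl1, the muscle form of Adss, was low, at 6.48 ± 6.12 and 12.2 ± 6.46 CPM, with 0 counts in WT replicate 3.

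PRPP supply held no called gene: edgeR called 0 of 4, with 1 unadjusted p under 0.05, and DESeq2 and limma voom called 0. Prps1 and Prps2 encode PRPP synthetases, and Prpsap1 and Prpsap2 their associated proteins. Prps1 had 23.9, 10.6, 16.7 and 15.2 CPM in WT and 36.2, 19.5, 26.0 and 35.3 CPM in KO (0.81, SE 0.36, adjusted p = 0.293). Prps2 had 58.0, 24.6, 71.6 and 32.4 CPM in WT and 23.2, 35.1, 47.9 and 24.3 CPM in KO (-0.51, SE 0.35, adjusted p = 0.593). Both overlapped between groups, with fitted changes of opposite sign. Prpsap1 and Prpsap2 were fitted at 0.23 and 0.78 with adjusted p of 0.760 and 0.662.

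**Figure D3:**
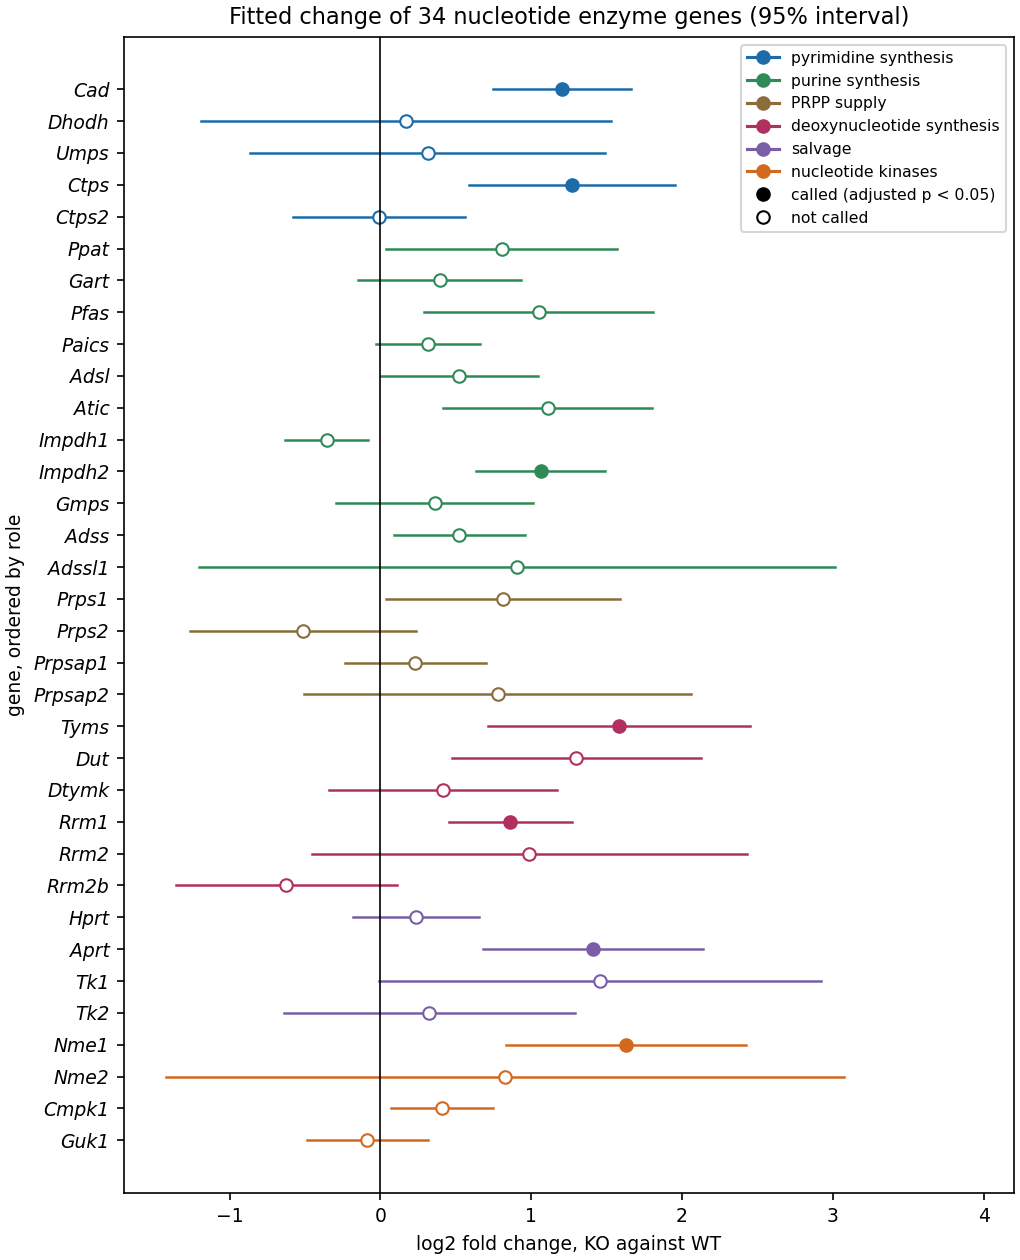
Fitted log2 fold change of KO against WT (horizontal axis) with its 95% interval for 34 nucleotide enzyme genes (vertical axis, ordered by role), filled where called at an adjusted p under 0.05. Nme4 is not drawn since its WT libraries are all at 0; of the 7 filled points all lie to the right of 0, and the intervals of Dhodh, Umps, Adssl1 and Nme2 are among the wide ones that span 0.

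Of the 6 deoxynucleotide genes 2 rose, and their median log2 fold change was 0.92. Without KO replicate 4 that median was 0.56, and the differences between roles were not tested. Rrm1 (chromosome 7, 102441695 to 102469771, plus strand) encodes the large catalytic subunit of ribonucleotide reductase. It had 62.1, 107, 92.8 and 92.1 CPM in WT and 142, 148, 152 and 201 CPM in KO, all KO libraries above WT. The log2 fold change was 0.86 (SE 0.19, edgeR adjusted p = 0.0185), or 1.82-fold with a 95% interval of 1.37 to 2.41, and the adjusted p without KO replicate 4 was 0.0737.

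Tyms (chromosome 5, 30058202 to 30073617, minus strand) encodes thymidylate synthase, which makes dTMP with a one-carbon unit from folate. Its level was 19.4, 14.0, 10.9 and 17.5 CPM in WT and 15.5, 46.9, 43.0 and 79.7 CPM in KO. KO replicate 1 lay within the WT range and the other 3 KO libraries lay above it, so that the log2 fold change of 1.58 (SE 0.41, edgeR adjusted p = 0.0418) rests on those 3. The call held only without KO replicate 1 among the fits that left out 1 library. Without any other library it was lost (edgeR adjusted p 0.0613 to 0.208). It was also lost with limma voom (0.169) and with replicate number as a block in the edgeR fit (0.119). Dut, which removes dUTP and supplies dUMP, had KO libraries at 31.2 to 68.4 CPM above WT libraries at 7.77 to 28.4 CPM (1.30, SE 0.39, adjusted p = 0.0825). Dtymk, the dTMP kinase, overlapped (0.41, adjusted p = 0.715).

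The genes of the small subunits of ribonucleotide reductase were not called. Rrm2, the subunit of dividing cells, had 31.7, 39.3, 31.5 and 40.0 CPM in WT and 8.90, 80.9, 51.0 and 142 CPM in KO. WT libraries were tight, while the KO libraries ranged from below all of them to well above, with a coefficient of variation of 79.1% against 13.1% in WT. The log2 fold change was 0.99 (SE 0.63, adjusted p = 0.579), and without KO replicate 1 it was 1.36 with an adjusted p of 0.0220. Rrm2b, the subunit that also serves DNA repair and mitochondrial DNA in resting cells, had 18.1, 24.8, 32.7 and 38.2 CPM in WT and 19.7, 18.005, 22.2 and 14.0 CPM in KO, and it was not called (-0.62, adjusted p = 0.450).

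Replication genes stood higher in the same libraries. For 29 genes of the replication machinery outside the 35, the summed level was 730 to 908 CPM in WT and 951, 1435, 1150 and 2128 CPM in KO replicates 1 to 4, lowest and highest in the same KO libraries as Tyms, Rrm2 and the deoxynucleotide group. The deoxynucleotide group summed to 178 to 257 CPM in WT and 242, 421, 332 and 551 CPM in KO replicates 1 to 4. Of the 29 replication genes 2 rose, Mcm6 (1.12, adjusted p = 0.00467) and Uhrf1 (1.35, adjusted p = 0.0371), and the median was 0.77. The replication level used as a term was the mean log2 CPM of these 29 genes. Relative to the WT mean, its highest WT value was 0.3151 (replicate 1) and its lowest KO value 0.3174 (replicate 1), nearly level. With the replication level as a term in the fit, 0 of the 35 genes and 161 of all genes were called. In that fit the log2 fold change was 1.25 for Cad (adjusted p = 0.0737), 0.75 for Impdh2 (0.349), 0.86 for Ctps (0.589), 0.66 for Rrm1 (0.454), 1.32 for Nme1 (0.386), 0.41 for Aprt (0.882) and 0.04 for Tyms (0.996). In this fit genotype and replication level overlap, and their shares cannot be told apart.

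**Figure D4:**
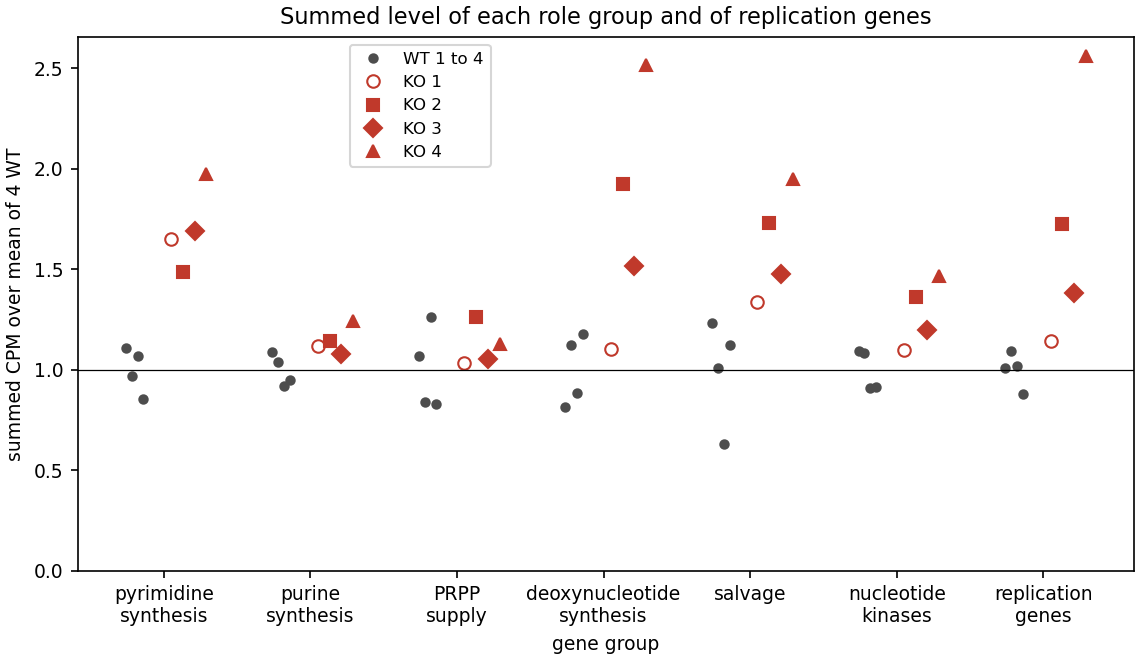
Summed CPM of each role group and of 29 replication genes, divided by the mean of the 4 WT libraries (vertical axis, starting at 0), with WT libraries as grey dots and each KO library by its own symbol. KO replicate 4 is the highest KO library in every group but PRPP supply, and KO replicate 1 lies within the WT range for deoxynucleotide synthesis but well above it for pyrimidine synthesis.

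The KO libraries were not alike among themselves. KO replicate 4 was the highest KO library for 18 of the 35 genes and replicates 1, 2 and 3 for 4, 8 and 5. KO replicate 1 was the lowest for 15, among them 4 of the 6 deoxynucleotide genes. The same library had the highest Cad (123 CPM) and the lowest Uqcrq (1.59 CPM) of the KO libraries. The number of the 35 genes above every WT library was 19, 24, 20 and 27 in KO replicates 1 to 4. Matching shares over all genes tested were not computed for these counts by library. Whether they are particular to nucleotide genes was therefore not tested. The median coefficient of variation was 24.6% over the 35 genes in KO. In WT it was 32.1% without Nme4, which has none there because all its WT counts are 0. Over the 35 genes, 0 counts occurred for 6 values in WT and 0 in KO.

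Salvage was represented by a purine pair and a thymidine kinase pair, and 1 of the 4 genes rose. Aprt (chromosome 8, 122574635 to 122576909, minus strand) recovers adenine with PRPP. It had 29.8, 14.4, 20.6 and 14.6 CPM in WT and 26.9, 69.0, 51.7 and 63.4 CPM in KO. KO replicate 1 lay below WT replicate 1 and the other KO libraries were above all WT libraries, for a log2 fold change of 1.41 (SE 0.34, edgeR adjusted p = 0.0303), or 2.66-fold. Leaving out any library other than WT replicate 1 or KO replicate 1 ended the call (edgeR adjusted p 0.0609 to 0.119). Removal of a length and GC trend (0.0620) and replicate number as a block (0.102) ended it too. Hprt, which recovers hypoxanthine and guanine, had 89.3, 84.1, 56.1 and 91.5 CPM in WT and 97.7, 92.2, 83.1 and 105 CPM in KO (0.23, adjusted p = 0.706), an overlap with a 95% interval of -0.18 to 0.65.

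Tk1, the cytosolic thymidine kinase of dividing cells, had 23.4, 24.0, 1.196 and 25.0 CPM in WT and 40.9, 54.7, 36.0 and 71.7 CPM in KO. All KO libraries were above all WT libraries, but WT replicate 3 stood far below the other WT libraries, and the log2 fold change of 1.46 (SE 0.66) was not called (adjusted p = 0.333). Tk2, its mitochondrial counterpart, had 22.2, 12.6, 6.58 and 18.9 CPM in WT and 13.1, 15.3, 26.3 and 20.8 CPM in KO, with overlap throughout (0.33, adjusted p = 0.865).

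The nucleotide kinases, which raise mono- and diphosphates to the next level, included 2 genes that rose. Nme1 (chromosome 11, 93956979 to 93968521, minus strand), a nucleoside diphosphate kinase, had 8.11, 20.01, 10.02 and 7.99 CPM in WT and 35.3, 35.7, 30.1 and 42.1 CPM in KO. No KO library reached down to the WT range, and the log2 fold change was 1.63 (SE 0.38, edgeR adjusted p = 0.0217), a 3.10-fold rise with a 95% interval of 1.79 to 5.38. The call held without WT replicate 2, WT replicate 3 or KO replicate 1 and was lost without any other library (adjusted p 0.0513 to 0.0800), with a log2 fold change of 1.49 or more. Nme1 and its neighbour Nme2 each share exon bases on the same strand with a readthrough gene, Gm20390, which had 17 counts over all libraries against 2287 for Nme1.

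Nme4 encodes the nucleoside diphosphate kinase of the mitochondrial membranes. It had 0 counts in each WT library and 7.40, 10.1, 3.40 and 3.62 CPM in KO. Against an assumed floor of 3 counts per WT library (0.301 CPM on average), the KO mean of 6.13 ± 3.22 CPM was 20.3-fold higher (edgeR adjusted p = 0.0407). That floor covers counting error only. Nme2 had 0 counts in WT replicate 3 beside 25.5 to 32.5 CPM in the other WT libraries. A count of 0 therefore need not bound the level, and the fold is not a secure minimum. The Nme4 call was lost without any library other than WT replicate 3 (edgeR adjusted p 0.0710 to 0.158). It was also lost with the level of Y-linked genes (0.0616) or of alveolar type 2 markers (0.0538) as a term, and with replicate number as a block (0.193). Nme2 had 32.5, 26.4, 0 and 25.5 CPM in WT and 23.8, 44.8, 37.9 and 44.2 CPM in KO, and its 95% interval of -1.42 to 3.08 includes WT replicate 3 at 0 counts. Cmpk1, the UMP and CMP kinase, had 113, 104, 87.3 and 96.2 CPM in WT and 128, 143, 129 and 131 CPM in KO, without overlap but with a small fitted change of 0.41 (SE 0.16, adjusted p = 0.204). Guk1, the GMP kinase, lay at 124.6 ± 12.9 and 117 ± 28.8 CPM, with a 95% interval of -0.49 to 0.31.

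Ratios between isozymes in the same library were compared for 8 pairs by exact two-sided permutation tests over the 70 ways to split 8 libraries into groups of 4; the smallest p they can give is 0.02857. With adjustment over the 8 pairs none could pass 0.05 unless 5 of the 8 reached that smallest p, and none did. The ratio of Ctps to Ctps2 was 0.288 to 0.745 in WT and 1.18 to 1.505 in KO. The ratio of Impdh2 to Impdh1 was 0.0903 to 0.125 in WT and 0.232 to 0.411 in KO. That of Prps1 to Prps2 was 0.234 to 0.470 in WT and 0.543 to 1.56 in KO. For these 3 pairs every KO library was above every WT library, with differences in mean log2 ratio of 1.38, 1.41 and 1.28 and the smallest possible p of 0.02857 each (adjusted p = 0.07619).

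Tk1 to Tk2 differed by 1.68 (exact p = 0.05714, adjusted p = 0.1143), with overlap between the groups. Rrm2 to Rrm2b ranged from 0.964 to 1.75 in WT and from 0.454 to 10.1 in KO (exact p = 0.3143), KO replicate 1 lying below all WT libraries and the other 3 KO libraries above them. Prpsap1 to Prpsap2 differed by -0.67 (exact p = 0.5143). Adss to Adssl1 and Nme1 to Nme2 had exact p of 0.4571 and 1, and both hold a 0 count in WT replicate 3, so that their ratio there depends on the prior count of 0.5.

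**Figure D5:**
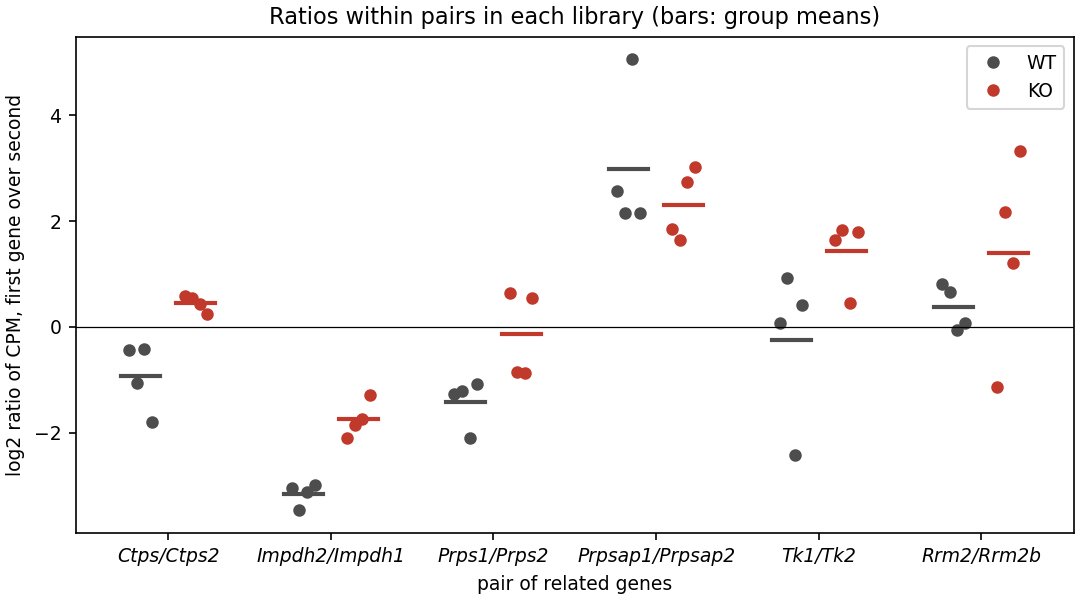
Log2 ratio of 6 isozyme pairs (horizontal axis) in each WT and KO library (vertical axis, with the mean of 4 libraries). The KO points of Ctps/Ctps2, Impdh2/Impdh1 and Prps1/Prps2 lie above all WT points; Adss/Adssl1 and Nme1/Nme2 are not drawn because of a 0 count in WT replicate 3.

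Other genes of nucleotide metabolism held no difference past the threshold in the edgeR test used throughout. Of 52 listed genes for further salvage, interconversion, breakdown and transport, 51 were in the table and 44 were tested. That test called 0, and 7 of the 44 had an unadjusted p under 0.05, against 15.2% of all genes tested. DESeq2 called 1 (Dck), limma voom 0 and edgeR with its newer dispersion option 4. These 4 were Dck, Dctd and Slc25a33, higher, and Gda, lower (Dctd was chosen after its values were seen). The median log2 fold change of the 44 genes was 0.11, with 26 fitted above 0 and 18 below. Dck, the deoxycytidine kinase, came closest, at 8.21 ± 3.06 CPM in WT and 25.6 ± 8.97 CPM in KO (1.63, SE 0.45, adjusted p = 0.0578). By sub-list the medians were 0.25 for 13 salvage genes, 0.07 for 12 interconversion genes, -0.09 for 14 breakdown genes and 0.30 for 5 transporters.

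Genes with the smallest p of each sub-list were mixed in sign. In salvage, Upp1, a uridine phosphorylase, went from 32.9 ± 7.13 to 58.9 ± 22.4 CPM (0.84, adjusted p = 0.131). In interconversion, Cmpk2, the mitochondrial UMP and CMP kinase, went from 42.7 ± 5.51 to 30.2 ± 16.2 CPM (-0.50, adjusted p = 0.577). In breakdown, the guanine deaminase Gda went from 12.1 ± 6.38 to 1.54 ± 1.44 CPM (-2.95, adjusted p = 0.166) and Dctpp1, which clears dCTP analogues, from 7.61 ± 2.88 to 18.7 ± 6.39 CPM (1.30, adjusted p = 0.219). Among transporters, the nucleoside carrier Slc29a1 went from 214 ± 18.8 to 264 ± 20.3 CPM (0.30, adjusted p = 0.286) and Slc25a33, a mitochondrial pyrimidine nucleotide carrier, from 0.822 ± 1.64 to 9.85 ± 7.73 CPM (adjusted p = 0.345). None of these was called by edgeR with all 8 libraries and its earlier dispersion option, the one used throughout, but Slc25a33 was called without WT replicate 3 and Dctpp1 on 6 libraries, without WT replicate 3 or KO replicate 1.

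Genes listed for aspartate, asparagine and one-carbon metabolism were higher, and 5 of 14 rose (median 1.78). Among them were Mthfd2 (3.98, edgeR adjusted p = 3.16e-05), Phgdh (3.70, 0.000873), Shmt2 (1.601, 0.000906) and the asparagine synthetase Asns (2.36, 0.00600). The summed level of the 14 genes was 615 to 940 CPM in WT and 1249 to 1406 CPM in KO. Of the KO libraries, KO replicate 4 had the lowest sum, where the sum over the 35 nucleotide genes was the highest.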

How the data were processed

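Whole-number read counts per gene were deposited for 8 libraries, 4 WT and 4 KO, grouped by the sample labels. The authors aligned to build mm10 and used TopHat, HTSeq, edgeR and bcl2fastq, per the submitters' processing notes; the sources used here do not state annotation, strand setting or treatment of multiply mapped reads. Symbols were added from GENCODE M21 (42462 of 43430 IDs; IDs without one took 0.0792% to 0.1005% of counts). No replicates were duplicates (34.4 to 77.1 chi-square units per degree of freedom). Reads carry no molecular identifiers, so the floor of 3 counts covers counting error only.

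Counts were scaled by TMM, filtered by filterByExpr (minimum 10, total 15) and tested with the quasi-likelihood test of edgeR 4.0.16 in R 4.3.3 (robust, genotype only, Benjamini-Hochberg at 0.05); the common biological coefficient of variation was 63.5%. The pipeline was tested on simulated data. SEs derive from the F statistic. Similar transcripts were sought with minimap2 2.31 (at least 95% over 200 bases). In 22 alternative fits, size factors, filter, tool (DESeq2 1.42.0, limma 3.58.1 voom), dispersion, covariates, a length and GC correction or the libraries changed. The members and lists were chosen with earlier results of these data known. Named genes are all members, Uqcrq and up to 2 genes with the smallest p per list of other nucleotide genes. Up to 4 were named from the aspartate, asparagine and one-carbon list and up to 4 from the replication list. For 1 gene that this rule names, the result is not reported here.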

Additional observations from a re-analysis of the deposited data

Results flagged for a closer look

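In 6 of 70 groups of 4 libraries, the level of a nucleotide enzyme gene in a single library stood apart from the other 3; chance gives about 1 in 20 groups. Umps had 10.7 CPM in KO replicate 1 and 24.3 to 27.0 CPM in the other KO libraries. Gart had 28.6 CPM in WT replicate 4 and 45.9 to 48.4 CPM in the other WT libraries. Impdh1 had 279 CPM in KO replicate 4 and 336 to 346 CPM in the other KO libraries. Rrm1 had 201 CPM in KO replicate 4 and 142 to 152 CPM in the other KO libraries. Tk1 had 1.196 CPM (8 counts) in WT replicate 3, the shallowest library, and 23.4 to 25.0 CPM (278 to 304 counts) in the other WT libraries. CPM are scaled to library size, and whether depth plays a part in the low Tk1 value was not tested. Nme1 had 20.01 CPM in WT replicate 2 and 7.99 to 10.02 CPM in the other WT libraries.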

How the results depend on the processing

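Of 461 genes called over the whole table, DESeq2 gave 788, the newer dispersion option of edgeR 747 and the fit with the replication level as a term 161; leaving out a library gave 270 (without KO replicate 3) to 446. The 8 members called higher became 0 with the replication level and 2 (without KO replicate 4) to 8 (without KO replicate 1) with a library left out, with 3 for WT replicate 4 and for KO replicates 2 and 3, and 4 for WT replicates 1 and 2. Members called lower were 1 with DESeq2 (Impdh1). The median of 0.78 was 0.61 with limma voom, 0.27 with the replication level, 0.48 with WT replicate 3 and KO replicate 1 both out, and 0.49 to 0.83 with a library left out. Deviations of same-numbered libraries from their group means had correlations of -0.098 to 0.0151. The labels do not say whether the numbers pair libraries, and these correlations cannot exclude it. A replicate block in the edgeR fit gave 5 members called higher. With it Ctps (adjusted p = 0.0734), Tyms (0.119), Aprt (0.102) and Nme4 (0.193) lost their calls and Dut (0.0374) gained one.

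Over 768 values of single members, 51 calls were lost, 10 gained and 19 changed sign. DESeq2 gave no adjusted p for Nme4 and Adssl1. Signs changed for genes that were not called. With the replication level the log2 fold change was -0.38 for Dhodh, -0.43 for Umps, -0.050 for Gart and -0.059 for Prpsap1. It was -0.23 for Dtymk, -1.66 for Rrm2, 0.028 for Rrm2b and -0.030 for Tk2. Ctps2 was 0.0059 with the newer dispersion option, 0.099 with both libraries out and -0.16 to 0.11 with a library left out. Guk1 was 0.076 with both out and -0.27 to 0.032 with a library left out. Dhodh ranged from -0.16 to 0.82 and Umps from -0.020 to 0.98 with a library left out. The log2 ratio of Prpsap1 to Prpsap2 ranged from -0.95 to 0.022 and that of Nme1 to Nme2 from -1.97 to 1.31. The cause of these shifts was not tested. Dut was also called without a filter, with DESeq2, with the newer option and with the block, and Tk1 with the newer option (adjusted p = 0.0221). The 95% intervals of Dhodh, Umps and Nme2 reach 2.89-fold, 2.81-fold and 8.44-fold, which bounds what this depth and spread can resolve.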
